A study of Mus musculus with 64 samples.

Results

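The genes described here are the nuclear genes for the protein subunits of the 5 complexes of oxidative phosphorylation, as read in mouse liver RNA. They were chosen by name: Nduf followed by a, b, c, s or v and digits, Sdha to Sdhd, and every name starting with Uqcr, with Cox4 to Cox8 or with Atp5. The count table held 96 such names. Pseudogene names carrying -ps (11) were left out, and 8 further names had a mean below 1 CPM, the count scaled to a common library total, over the libraries, which left 77 genes of the 53008 names in the table. Of these, 36 belong to complex I, 4 to complex II, 8 to complex III, 12 to complex IV and 17 to complex V. Ndufa4 was counted with complex IV, whose subunit its protein is now taken to be. All 77 genes entered the test. The lowest of them stood at 6.14 CPM and the highest of the 8 names below the minimum at 0.39 CPM (Cox6c2), so the choice of 1 CPM decided no name: minimums of 0.5 and 2 CPM gave the same 77.

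The liver samples came from wild-type (WT) mice and from humanized HuMgat2 mice, in which human MOGAT2 is expressed, an enzyme that joins a fatty acid to monoacylglycerol. Mice of both genotypes received chow or a high-fat diet (HFD) for 16 weeks, giving 4 groups: WT on chow (libraries 5 to 8), WT on HFD (libraries 1 to 4), HuMgat2 on chow (libraries 13 to 16) and HuMgat2 on HFD (libraries 9 to 12). Each group held 4 libraries. Age, sex, background strain and the promoter that drives the human gene are not given in the sources used here. The labels do not state that each library is a separate animal, so the p-values measure only the spread between these libraries.

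The respiratory chain passes electrons from NADH (complex I) and succinate (complex II) through ubiquinone, complex III and cytochrome c to oxygen at complex IV, and the proton gradient built on the way drives ATP synthase, complex V. Most subunits are encoded in the nucleus and imported, while a small set of core subunits is encoded in the mitochondrial genome, so that the 2 sets have to be made together. In the liver the chain takes up the electrons released by fatty acid oxidation and the citric acid cycle, and it is therefore often examined in livers loaded with fat.

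Total counts per library ranged from 12422647 to 25812129. Albumin, the main secreted protein of hepatocytes, took 3.259% to 6.018% of the counts in 15 libraries, and every one of 11 hepatocyte markers in the table had counts in all libraries. WT HFD library 4 stood apart: it was the shallowest, albumin took 0.85% of its counts, its summed hepatocyte markers were the lowest of its group (55390 CPM against a group median of 80860) and its summed macrophage markers the highest (1328 against 428.5 CPM). Mouse Mogat2 had 0 to 12 counts in every library, which is too few to check the genotype labels, and human MOGAT2 was not analysed here. Levels below are CPM scaled by TMM. A gene is said to have risen or fallen only at an adjusted p below 0.05 in the edgeR quasi-likelihood test, with Benjamini-Hochberg adjustment over the 17318 genes tested. In bulk tissue, fewer cells of a type and less RNA per cell cannot be told apart.

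Levels per length, as CPM per kb of annotated exon, were compared between genes as means over the 16 libraries. The catalytic core of ATP synthase led: Atp5a1 (alpha subunit) stood at 173 ± 21.4 CPM per kb (SD, n = 16) and Atp5b (beta subunit) at 136 ± 18.6. Next came 3 small subunits of complex IV, Cox6b1 at 127 ± 14.1, Cox6a1 at 126 ± 11.3 and Cox8a at 125 ± 14.6 CPM per kb. Atp5b and these 3 did not differ from each other beyond their SDs. Sdha, the flavoprotein of complex II that oxidises succinate, was the highest of its complex at 84.3 ± 12.2 CPM per kb, and Sdhc, one of its membrane anchors, the lowest at 22.1 ± 2.6. The median per gene was 19.9 CPM per kb in complex I, 48.1 in complex II, 42.9 in complex III, 42 in complex IV and 37.5 in complex V. The lowest values were those of the complex I accessory subunits Ndufb7 (2.83 ± 0.342) and Ndufb2 (2.55 ± 0.363). These values divide by all annotated exon bases of a gene, so exons that the liver does not use lower them.

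Subunit c of ATP synthase, which forms the rotating ring, is made from 3 genes that encode the same mature protein. Per kb, Atp5g2 stood at 59.3 ± 10.1, Atp5g3 at 48.3 ± 6.3 and Atp5g1 at 11.8 ± 0.77 CPM. Per kb Atp5g1 was the lowest of the 3, and Atp5g2 and Atp5g3 did not differ beyond their SDs. This order depends on the length: the annotated exons span 4912 bases in Atp5g1, 731 in Atp5g2 and 2181 in Atp5g3. Not divided by length, Atp5g1 had a mean of 58.05 CPM by library total, above Atp5g2 at 43.85 and below Atp5g3 at 106.1. Where complex IV has one isoform for most tissues and another for heart, skeletal muscle, lung or testis, the liver libraries held the first. Cox4i1 stood at 63.5 ± 4.7 and Cox7a2 at 42.2 ± 4.48 CPM per kb. The alternatives had 16 counts in all for Cox4i2, 9 for Cox6a2, 29 for Cox6b2, 116 for Cox7a1 and 8 for Cox8b over the 16 libraries, and 0 for Cox7b2 and Cox8c. Among 11 muscle markers, Myh6 was at 0 in all 16 libraries and Ckm, the muscle creatine kinase, at 0 in 12. Others had a few counts: Acta1 was at 0 in 9 libraries and Tnnt2 (at most 15 counts) in 3. Mylpf had 2 to 9 counts in every library, at a mean of 0.2833 CPM. None of the alternative complex IV isoforms reached a mean of 1 CPM.

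Summed over the genes of a complex, the transcript level differed little between the groups next to the spread of the libraries, with 1 library far below the rest. The sum of all 77 genes was 5085, 4923.4, 5168.5 and 5350.5 CPM in the libraries of WT on chow, and 5250.2, 5298.3, 5623.5 and 3895 in those of WT on HFD. For HuMgat2 mice it was 5643.8, 5303.5, 4836.5 and 5303.5 CPM on chow, and 5488, 5554.6, 5589.1 and 5273.8 CPM on HFD. The groups overlapped in 15 libraries, which lay between 4836.5 and 5643.8 CPM, and WT HFD library 4 lay below them all. The group means were 5132 ± 178 CPM (SD, n = 4) in WT on chow, 5017 ± 766 in WT on HFD, 5272 ± 332 in HuMgat2 on chow and 5476 ± 141 in HuMgat2 on HFD. Without library 4 the WT HFD mean was 5391 ± 203 CPM (n = 3).

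**Figure D1:**
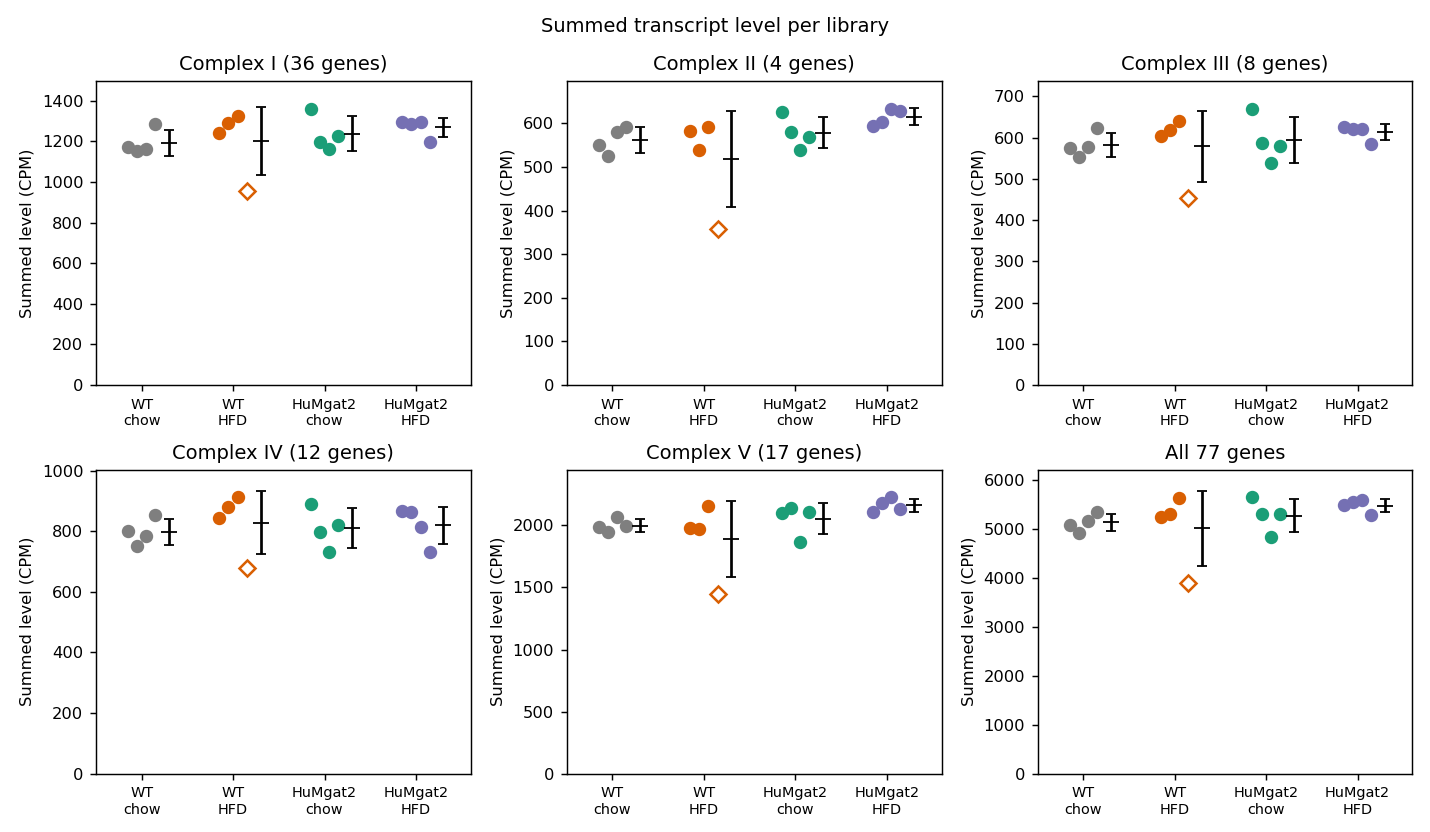
Summed level (CPM, y axis from 0) of the genes of each complex and of all 77 genes, with 1 point per library in the 4 groups, bars at the right of each group for mean ± SD (n = 4), and an open diamond for WT HFD library 4. In every panel that library is the lowest of the 16, at 3895 CPM for all genes, and the other 15 points of that panel lie between 4836.5 and 5643.8 CPM.

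The plot of summed levels shows each complex on its own axis. Complex I, the NADH dehydrogenase, had a summed level of 1193 ± 63.7 CPM in WT on chow, 1202 ± 169 in WT on HFD, 1237 ± 86.8 in HuMgat2 on chow and 1269 ± 48.4 in HuMgat2 on HFD. Complex II, which ties the citric acid cycle to the chain, had 561.8 ± 30.6, 518.3 ± 109, 578.4 ± 35.6 and 615.3 ± 19 CPM in the same order. In complex II the 4 HuMgat2 HFD libraries, at 594.4 to 633.88 CPM, lay above all 4 WT HFD libraries, at 358.44 to 592.78, and all 4 WT chow libraries, at 524.83 to 592.54, and overlapped with HuMgat2 on chow. Sdha made up 380.6 CPM of the complex II mean of 615.3 in HuMgat2 on HFD. The sums of the complexes were not tested. Complex III, which reduces cytochrome c, had 581.7 ± 29.9, 579 ± 85.7, 593.4 ± 55.5 and 612.6 ± 19.5 CPM. Complex IV, the cytochrome c oxidase, had 797.6 ± 42.8, 828.6 ± 103, 810.3 ± 65.7 and 818.9 ± 62.7 CPM. Complex V had 1998 ± 50.1, 1889 ± 304, 2053 ± 126 and 2161 ± 53.9 CPM. In complex V the HuMgat2 HFD libraries, at 2103.6 to 2225.1 CPM, lay above the WT chow libraries, at 1944.8 to 2065.7. They overlapped with WT on HFD and HuMgat2 on chow. Outside WT on HFD, the SD within a group was at most 9.35% of its mean for any complex, and in WT on HFD it was 12.4% to 21.1%.

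WT HFD library 4 decided much of the spread in its group, so it was described before the comparisons. The 77 genes took 0.395% of its counts. It was the lowest of the 16 libraries for 41 of the 77 genes (53.2%), against 15.6% of all tested genes and 22.3% of those at or above the level of the lowest of the 77. Against the other 3 WT HFD libraries alone, 64 of the 77 lay below all 3, with a median log2 ratio of -0.40 to their mean. This was 83.1%, against 33.1% of all tested genes and 39.5% of those at or above the level of the lowest of the 77. Sdha was the lowest by ratio, at 188.4 CPM against 334.7 to 356.6 in the other 3. Uqcrc1, a core protein of complex III, was at 93.1 CPM against 139.5 to 141.3. Genes above all 3 others numbered 4: Ndufa2 (15.9 against 8.89 to 15.2 CPM), Cox7a2l (69.8 against 49.7 to 59.8), Atp5g2 and Atp5g1. The part of the low hepatocyte and high macrophage marker sums of this library in its low levels was not tested. The counts of called genes in comparisons that use WT HFD are given with and without it.

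**Figure D2:**
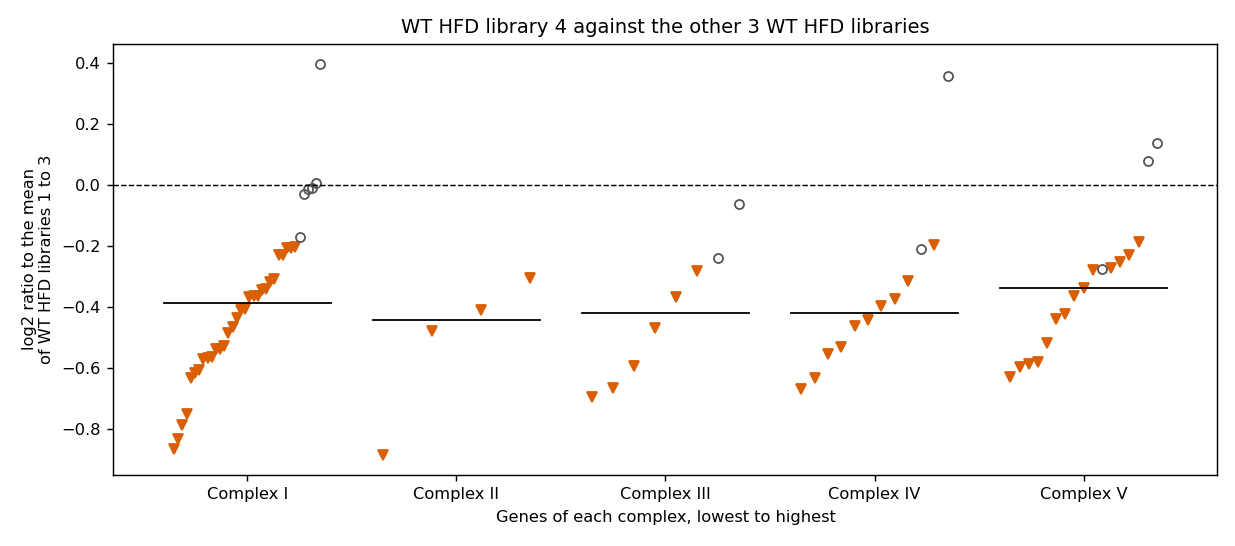
log2 ratio of WT HFD library 4 to the mean of WT HFD libraries 1 to 3 (y axis) for each gene, ordered within each complex (x axis). Filled triangles mark genes below all 3 other libraries, open circles the rest, and black lines the median of a complex: the medians lie between -0.34 in complex V and -0.44 in complex II.

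The first question was which of these genes differed with diet in the livers of WT mice. No gene of the 77 rose or fell with HFD, where 15.1% of the 17318 tested genes did, and 18.4% of the 8978 tested genes at or above the level of the lowest of the 77. At an unadjusted p below 0.05 the count was 4 (5.19%, against 29.7% of the tested genes), all higher on HFD: Ndufc2, Uqcrq, Ndufb7 and Ndufa8. Without library 4 it was 14 (18.2%, against 28.3%). DESeq2 called none, and limma voom with sample quality weights, which give a deviant library less weight, called 9 higher, where it called 22.8% of genes. The median log2 change of the 77 was 0.05, beside 0.03 over all genes, and the values ran from -0.27 (Atp5b, adjusted p = 0.195) to 0.39 (Ndufa13, adjusted p = 0.188). The 95% interval of the change lay within 1.5-fold in either direction for 69 of the 77 genes and within 2-fold for all 77.

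Ndufc2, an accessory subunit in the membrane arm of complex I, came nearest to the threshold in WT. Its level was 20.55, 18.6, 18.4 and 19.8 CPM in WT on chow, and 22.9, 24.2, 27.3 and 19.5 CPM in WT on HFD. Libraries 1 to 3 on HFD lay above every chow library, and library 4 lay among them. The log2 change was 0.28 ± 0.10 (SE, adjusted p = 0.0698). Without library 4 it was 0.36 ± 0.10 (adjusted p = 0.0174), and Ndufc2 was then the 1 gene of the 77 that rose, where 14.7% of genes were called. In that fit 63 of the 77 changes were above 0, with a median of 0.13. Over all genes 52.3% were above 0, with a median of 0.02. With all libraries 47 of the 77 were above 0, beside 54.1% of all tested genes. Uqcrq, a small subunit of complex III, was the 1 gene whose WT groups did not overlap, as was the case for 18.2% of the tested genes. Without library 4 the WT groups of 10 genes did not overlap, all higher on HFD, where 26.3% of genes did not. It stood at 67.3, 63.85, 64.8 and 58.97 CPM on chow and at 69.7, 89.7, 79.9 and 76.3 CPM on HFD, with a log2 change of 0.31 ± 0.12 (adjusted p = 0.0835).

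In HuMgat2 mice the same comparison gave 1 gene that rose and 1 that fell, 2 of 77. Of the tested genes 14% were called, and 17.5% of those at or above the level of the lowest of the 77. The 2 genes called belong to complex I. Ndufs7 encodes a core subunit that holds the last iron-sulfur cluster before ubiquinone, and Ndufa7 an accessory subunit. Ndufs7 stood at 25.1, 22.9, 23.9 and 24.2 CPM in HuMgat2 on chow and at 20.7, 18.9, 20.4 and 19.4 CPM on HFD. The 4 HFD libraries lay below the 4 chow libraries. Ndufs7 fell by 0.28 on the log2 scale (SE 0.08, adjusted p = 0.0307), a level 1.21-fold lower with a 95% interval for the log2 change of -0.45 to -0.10. In WT mice Ndufs7 stood at 25.9, 23.2, 25.9 and 24.4 CPM on chow and 21.45, 25.1, 23.01 and 19.8 CPM on HFD, which overlapped, and its change there was not called (log2 -0.15 ± 0.08, adjusted p = 0.228). The difference between the genotypes in the diet change of Ndufs7 was not called either (interaction log2 -0.13 ± 0.11, adjusted p = 0.608).

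Ndufa7 stood at 15.95, 23.9, 19.8 and 23.8 CPM in HuMgat2 on chow and at 30.1, 27.75, 28.7 and 23.6 CPM on HFD. Libraries 9 to 11 on HFD lay above all chow libraries, and library 12 lay below 2 of them. The log2 change was 0.40 ± 0.13 (adjusted p = 0.0455), or 1.32-fold with a 95% interval of 1.09 to 1.58. Ndufa7 kept its call in 12 of 23 alternative settings and Ndufs7 in 15 of 23, with adjusted p from 0.0212 to 0.124 and from 0.0148 to 0.182. The call of Ndufs7 was lost when any of the HuMgat2 libraries 13, 15 and 16 (chow) or 10, 11 and 12 (HFD) was left out. That of Ndufa7 was lost when any of libraries 6 and 7 (WT, chow), 2 and 3 (WT, HFD), 13 and 15 (HuMgat2, chow) or 9, 10 and 11 (HuMgat2, HFD) was left out. Without WT HFD library 4, which is in neither group compared but in the shared fit, filter and adjustment, 3 genes rose and 1 fell, where 19.2% of genes were called: Ndufa7, Ndufa8 and Ndufa10 rose and Ndufs7 fell. Groups did not overlap for 3 of the 77 (Ndufs7, Ndufa8 and Ndufa10) and for 21% of the tested genes. With all libraries, the 95% interval lay within 1.5-fold for 70 genes and within 2-fold for 76, all but Cox6c.

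**Figure D3:**
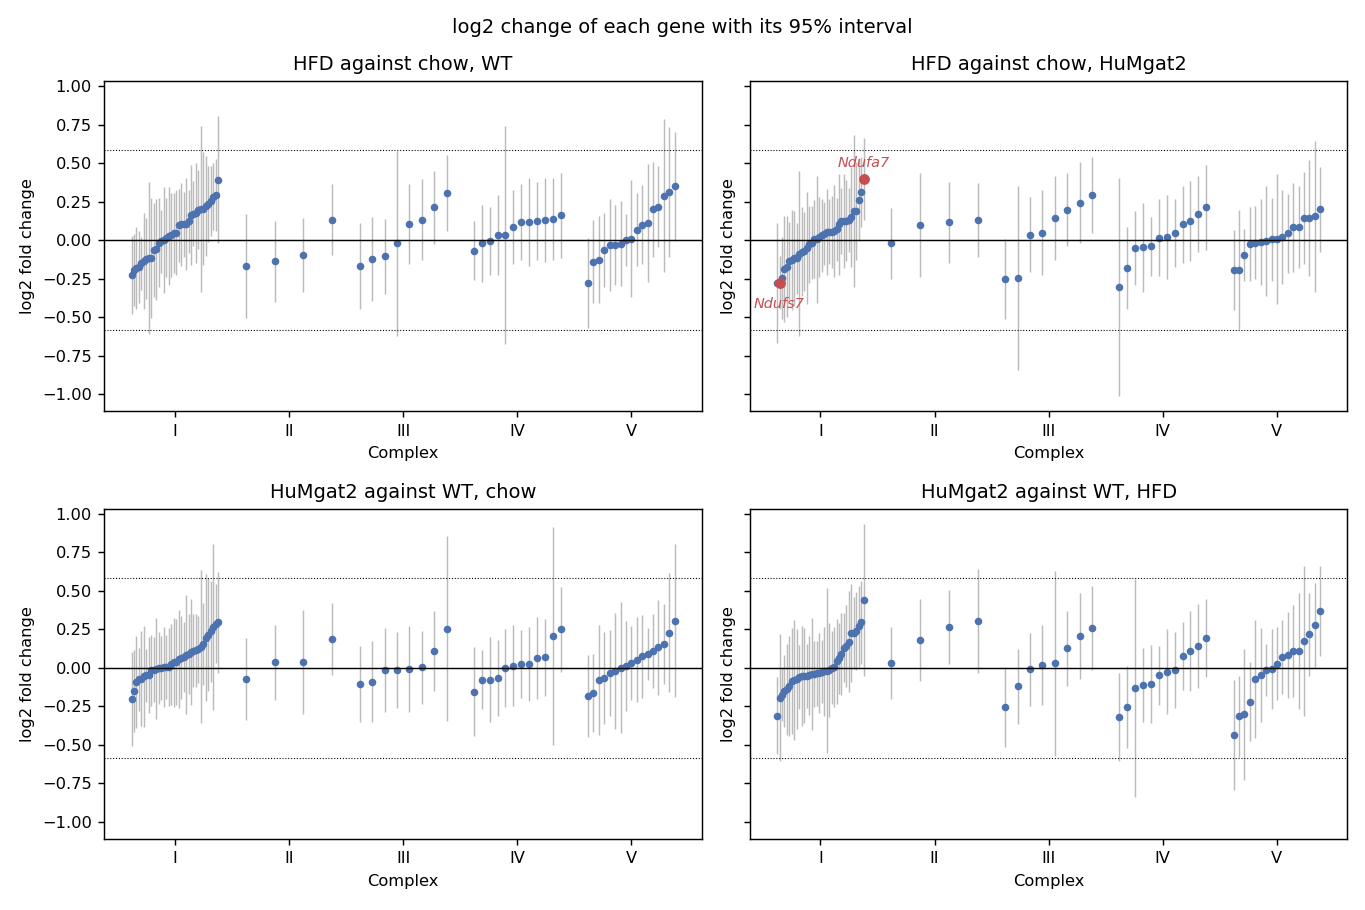
log2 fold change of each of the 77 genes (points) with its 95% interval (grey lines), ordered within each complex, for the 4 comparisons of 2 groups. Dotted lines mark 1.5-fold, and red points the 2 genes past the adjusted p of 0.05, Ndufs7 at -0.28 and Ndufa7 at 0.40, both in HFD against chow in HuMgat2 mice.

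Averaging the diet change over both genotypes uses all 16 libraries, and the 95% interval then lay within 1.5-fold for 76 of the 77 genes. Of the 77, 3 rose (Ndufa8, Uqcrq and Ndufc2) and 1 fell (Ndufs7), where 23.9% of the tested genes were called. Ndufa8, an accessory subunit of complex I, stood at 29.7, 25.9, 29.8 and 35.9 CPM in WT on chow and 36.8, 37.2, 38 and 32.3 CPM in WT on HFD. For HuMgat2 mice the values of Ndufa8 were 36.6, 26.2, 31.4 and 33.3 CPM on chow and 39.9, 40.6, 37.4 and 40.3 CPM on HFD. The HuMgat2 groups did not overlap, and in WT all HFD libraries other than library 4 lay above all chow libraries. The averaged log2 change of Ndufa8 was 0.28 ± 0.08 (adjusted p = 0.0126), or 1.22-fold.

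Uqcrq rose by a like amount, with an averaged log2 change of 0.30 ± 0.08 (adjusted p = 0.0138). In HuMgat2 mice it stood at 51.3, 65.55, 51.45 and 68.35 CPM on chow and 75.1, 75.2, 80.5 and 59.7 CPM on HFD, where library 12 lay within the chow range. The averaged change of Ndufc2 was 0.21 ± 0.07 (adjusted p = 0.0472). In HuMgat2 mice Ndufc2 stood at 22.3, 21.3, 19 and 21.4 CPM on chow and 24.4, 22.1, 25 and 20.3 CPM on HFD, which overlapped. Ndufs7 fell by 0.21 on the log2 scale (SE 0.06, adjusted p = 0.0131). Ndufa8 and Uqcrq kept their calls in all 22 alternative settings, Ndufs7 in 21 and Ndufc2 in 6 (adjusted p 0.0066 to 0.143). Without WT HFD library 4, 10 genes rose and Ndufs7 fell, where 26.9% of genes were called. The 7 beyond Ndufa8, Uqcrq and Ndufc2 were the complex I genes Ndufa10, Ndufs1 and Ndufs4, the complex III genes Uqcr10 and Uqcr11 and the complex IV genes Cox7b and Cox7c, at log2 changes of 0.19 to 0.25.

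**Figure D4:**
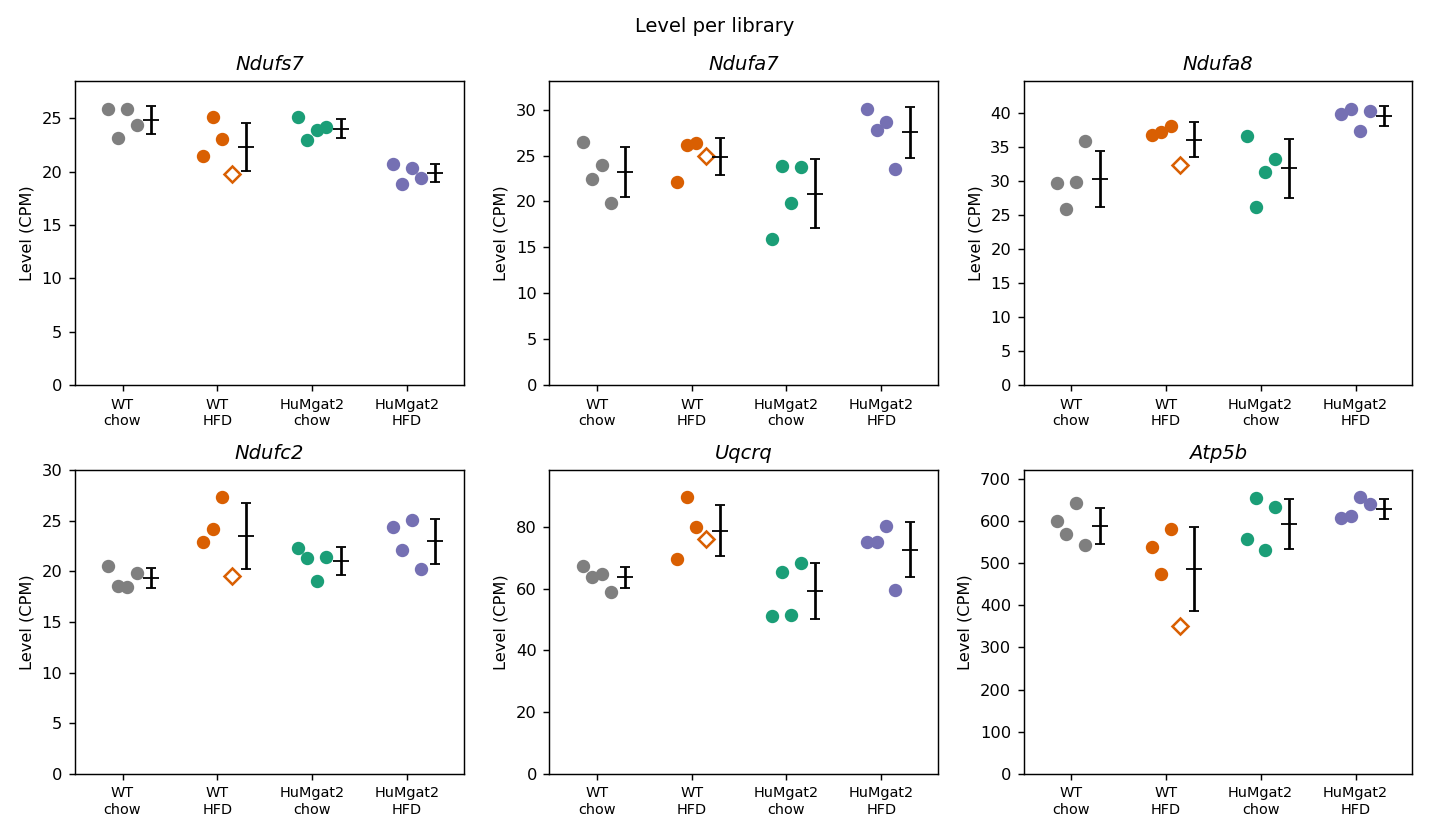
Level (CPM, y axis from 0) per library of the genes called for diet and of Atp5b, with 1 point per library in the 4 groups, bars at the right for mean ± SD (n = 4) and an open diamond for WT HFD library 4. Ndufs7 is lower in all 4 HuMgat2 HFD libraries (18.9 to 20.7 CPM) than in HuMgat2 on chow, and Ndufa8 higher (37.4 to 40.6 CPM).

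Markers of other cells moved with the same comparisons. In HFD against chow in HuMgat2 mice, 7 of 10 stellate cell markers rose and 5 of 11 hepatocyte markers fell. The summed stellate markers were 493.8 to 563.2 CPM on HFD against 213.3 to 347 on chow. In WT mice 3 stellate markers rose and 1 hepatocyte marker fell. Of 8 endothelial markers, 1 rose in each genotype. Of 5 tested bile duct (cholangiocyte) markers, 1 rose in WT (0 without library 4), and 1 rose and 1 fell in HuMgat2. Of all tested genes, 15.1% were called in WT and 14% in HuMgat2. Of 12 macrophage markers, 6 rose with HFD in WT (4 without library 4) and 1 in HuMgat2 (3 without it). The summed adipocyte markers were 83.7 to 135.6 CPM in WT HFD libraries 1 to 3 and 1.51 in library 4. Of the 6 markers summed, Cfd had a mean of 19.66 CPM over the libraries and Fabp4 3.61. The rest had means of at most 0.033 CPM, so the sum mainly follows Cfd and is no measure of the list as a whole. Adipoq and Lep, which define fat cells, were at 0 in 13 and 15 libraries. The part of these markers in the changes of Ndufs7, Ndufa7, Ndufa8, Uqcrq and Ndufc2 was not tested.

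Promoter windows of 300 bases, from 250 before to 50 after the start of the gene, were taken from RefSeq on GRCm38.p6, a build older than that of the counts. Windows matched 65 of the 77 genes by symbol. The 5 sequences shown are chosen so: those of the genes called for diet that have a window, and that of Cox6a1, a gene with letters of both main classes of motif that was called in no comparison. Capitals mark the motif letters searched on both strands. These were CGCATGCG for NRF1 and CCGGAAG for ETS factors such as GABPA, both known as activators of respiratory chain genes, AAGATGGC for YY1, AAGGTCA for estrogen-related receptors and TATAAA for the TATA box. No 2 motifs overlapped in the windows of the 77.
Ndufa8, chr2:36049289-36049588, minus strand: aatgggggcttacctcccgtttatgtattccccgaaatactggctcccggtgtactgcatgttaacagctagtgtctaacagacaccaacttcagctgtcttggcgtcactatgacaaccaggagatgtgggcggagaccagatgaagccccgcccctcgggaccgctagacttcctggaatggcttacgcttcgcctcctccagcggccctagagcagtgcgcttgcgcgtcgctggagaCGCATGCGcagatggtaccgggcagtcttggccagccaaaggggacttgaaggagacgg
Ndufs7, chr10:80249199-80249498, plus strand: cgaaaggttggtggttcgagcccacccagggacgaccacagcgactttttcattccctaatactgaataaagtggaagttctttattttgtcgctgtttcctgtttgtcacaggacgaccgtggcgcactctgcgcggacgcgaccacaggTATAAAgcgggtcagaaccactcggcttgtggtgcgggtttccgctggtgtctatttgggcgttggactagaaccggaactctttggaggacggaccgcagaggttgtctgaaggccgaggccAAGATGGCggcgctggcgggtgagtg
Ndufa7, chr17:33824322-33824621, plus strand: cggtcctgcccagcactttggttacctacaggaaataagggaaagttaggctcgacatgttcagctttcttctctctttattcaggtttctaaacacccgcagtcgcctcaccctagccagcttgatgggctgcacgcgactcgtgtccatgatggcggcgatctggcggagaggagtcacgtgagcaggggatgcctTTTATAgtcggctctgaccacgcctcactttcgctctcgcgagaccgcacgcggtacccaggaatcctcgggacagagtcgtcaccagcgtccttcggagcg
Ndufc2, chr7:97399753-97400052, plus strand: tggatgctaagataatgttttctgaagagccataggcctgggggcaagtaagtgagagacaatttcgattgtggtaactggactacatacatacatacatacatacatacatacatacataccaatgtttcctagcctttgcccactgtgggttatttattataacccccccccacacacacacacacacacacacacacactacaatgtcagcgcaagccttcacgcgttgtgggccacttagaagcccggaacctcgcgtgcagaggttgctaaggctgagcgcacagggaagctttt
Cox6a1, chr5:115348909-115349208, minus strand: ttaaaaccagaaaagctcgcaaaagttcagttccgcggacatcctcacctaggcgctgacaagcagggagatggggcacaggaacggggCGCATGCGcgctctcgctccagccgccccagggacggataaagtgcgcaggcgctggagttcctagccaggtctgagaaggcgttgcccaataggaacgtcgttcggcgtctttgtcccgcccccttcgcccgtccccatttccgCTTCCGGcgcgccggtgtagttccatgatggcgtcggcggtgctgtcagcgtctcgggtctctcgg
The Ndufa8 window held the NRF1 letters just upstream of the start of the gene, the Ndufs7 window TATAAA upstream and the YY1 letters downstream of the start, the Ndufa7 window TATAAA on the minus strand, and the Ndufc2 window none of the 5. The Cox6a1 window held the NRF1 and the ETS letters. The NRF1 letters were in the windows of 9 of the 65 genes (13.8%), against 2.07% of the 27025 genes with a window. The ETS letters were in 17 (26.2% against 9.93%), the YY1 letters in 10 (15.4% against 3.19%) and the receptor letters in 8 (12.3% against 5.38%). TATAAA was in 6 (9.23% against 15.7%). Among the 17492 protein-coding genes with a window, the shares were 2.77% for NRF1, 12.9% for ETS and 3.57% for YY1. They were 4.73% for the receptor letters and 14.8% for TATAAA. A match is a description of the letters and not a binding site.

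Between genotypes on chow, no gene of the 77 was called, where 0.508% of the tested genes were. At an unadjusted p below 0.05 the count was 1 (1.3%, against 10.8% of the tested genes). This was Ndufs8, a core iron-sulfur subunit of complex I (log2 0.29, adjusted p = 0.393). Neither DESeq2 nor limma voom called any. Changes ran from -0.20 (Ndufb6) to 0.31 (Atp5k), with a median of 0.03 beside 0.00 over all genes. No gene of the 77 had groups without overlap, as 6.62% of tested genes did. The 95% interval lay within 1.5-fold for 69 genes and within 2-fold for all 77.

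On HFD, no gene of the 77 was called between HuMgat2 and WT, where 14.8% of the tested genes were. Of those at or above the level of the lowest of the 77, 17.7% were called. At an unadjusted p below 0.05 the count was 9 (11.7%, against 31.2% of the tested genes): Atp5b, Ndufa10, Ndufa9 and Sdhc with a higher level in HuMgat2, and Atp5e, Atp5mpl, Ndufa4, Ndufb1 and Ndufs7 with a lower one. DESeq2 called 1, Atp5b, as higher, where it called 15.9% of genes. Groups did not overlap for 6 of the 77, among them Atp5b, Ndufa10, Ndufs5, Sdha and Sdhc, and for 21.2% of the tested genes. In all 6 the HuMgat2 libraries were higher. Without library 4 the count was 14, with 7 higher and 7 lower in HuMgat2, where 29.1% of genes did not overlap.

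Atp5b came nearest to the threshold. It stood at 607.1, 613.2, 656.3 and 639.5 CPM in HuMgat2 on HFD and at 539, 475.4, 580 and 351.2 CPM in WT on HFD. All 4 HuMgat2 libraries lay above the 4 WT ones, and the lowest was library 4. The log2 difference was 0.37 ± 0.14 (adjusted p = 0.0796), and 0.24 ± 0.11 without library 4 (adjusted p = 0.154). Sdha stood at 367.5, 371.4, 392 and 391.4 CPM in HuMgat2 on HFD and at 353.7, 334.7, 356.6 and 188.4 CPM in WT on HFD, a log2 difference of 0.30 ± 0.16 (adjusted p = 0.208) that was 0.13 ± 0.10 without library 4 (adjusted p = 0.434). With Sdha the WT libraries other than library 4 lay just below the HuMgat2 range.

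Without library 4, 2 genes fell below WT and none rose, where 14.2% of genes were called, and the median log2 difference went from -0.01 to -0.07. The 2 were Atp5mpl, a small subunit of ATP synthase, and Ndufa4. Ndufa4 stood at 54, 50.9, 51.1 and 37.4 CPM in HuMgat2 on HFD and at 55.6, 65.7, 72.3 and 47.4 CPM in WT on HFD, with library 4 the lowest WT value. Its log2 difference was -0.32 ± 0.14 with all libraries (adjusted p = 0.119) and -0.42 ± 0.13 without library 4 (adjusted p = 0.0375). For Atp5mpl the values were 11.2, 11.9, 11.8 and 9.68 CPM in HuMgat2 against 13.7, 14.3, 16.3 and 10.9 in WT, and the difference was -0.31 ± 0.12 (adjusted p = 0.0984) with and -0.41 ± 0.12 (adjusted p = 0.0284) without it. limma voom with quality weights called 6 lower, among them these 2, where it called 25% of genes. The comparison of diet in WT and that of genotype on HFD share the WT HFD libraries.

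A difference between the genotypes in the diet change was called for none of the 77, where the interaction test called 4.87% of all genes. None had an unadjusted p below 0.05, where 18.1% of the tested genes did, and neither DESeq2 nor limma voom called any. Without library 4 the count stayed at 0 (6.4% of genes called), with 1 gene at an unadjusted p below 0.05 (1.3%, against 19.2%). The interaction is the least precise of these tests: its 95% interval lay within 1.5-fold for 44 of the 77 genes and within 2-fold for 73. Its median was -0.05 over the 77 and -0.05 over all genes, and without library 4 it was -0.11 and -0.02.

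Across the 4 simple comparisons, the size of the changes was read beside that of the tested genes at or above the level of the lowest of the 77. These genes share only that lower bound with the 77 and were not otherwise matched in level. The median absolute log2 change of the 77 was 0.12 in WT and 0.10 in HuMgat2 for diet, against 0.18 in both for the 8978 genes. Between genotypes it was 0.07 on chow and 0.11 on HFD, against 0.11 and 0.19. Within complexes, the median diet change in WT was 0.05 in complex I, -0.12 in complex II, 0.04 in complex III, 0.10 in complex IV and 0.01 in complex V. In HuMgat2 it was 0.03, 0.11, 0.10, 0.02 and 0.01. Without library 4 the medians in WT were 0.14, 0.01, 0.15, 0.16 and 0.11.

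Some genes followed the share of counts that fell on the mitochondrial genome, which has 13 protein-coding genes in the table. That share ran from 4.47% to 13% of a library's counts, with 10.1% in WT chow library 8 and 13% in HuMgat2 chow library 13 as the highest. Uqcrb, a small subunit of complex III, stood at 63.45, 81.7, 71.2 and 147.4 CPM in WT on chow and 98.5, 95.4, 101.9 and 62.1 CPM in WT on HFD. For HuMgat2 mice the values of Uqcrb were 182, 74.8, 102.3 and 75.1 CPM on chow and 106.1, 98.6, 82.2 and 79 CPM on HFD. Its highest values were in the 2 libraries with the highest mitochondrial share and its lowest in library 4, which had the lowest share. Over the 16 libraries Pearson's r was 0.975 (permutation p = 1e-05, the smallest that 100000 permutations can give, adjusted over all genes 0.00251) and Spearman's rho 0.918 (permutation p = 1e-05, adjusted 0.00693). Without the 2 libraries farthest from the median share, WT chow 8 and HuMgat2 chow 13, r was 0.899 and rho 0.877 (adjusted permutation p = 0.0577). With group means removed r was 0.977.

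Cox6c, a small nuclear subunit of complex IV, behaved alike. It stood at 49.6, 56.6, 50.4 and 121.1 CPM in WT on chow, 72.7, 79.3, 82.8 and 49.25 in WT on HFD, 148.4, 47.2, 74 and 51.5 in HuMgat2 on chow and 78.7, 69.1, 59.7 and 52.2 in HuMgat2 on HFD. The 2 libraries with the highest share were again the highest. Its r was 0.952 and its rho 0.868 (adjusted permutation p = 0.00361 and 0.0122), and 0.799 and 0.802 without these 2 libraries. Ndufs5, a complex I accessory subunit, had r = 0.851 and rho = 0.818 (adjusted permutation p = 0.00251 and 0.0259), with r = 0.752 without the 2. For Sdha rho was 0.835 (adjusted permutation p = 0.0198) while r was 0.665 (adjusted permutation p = 0.207). Sdha and Ndufs5 lost their calls when levels were scaled to the counts off the mitochondrial genome (rho 0.50 and 0.747), and Uqcrb and Cox6c kept theirs.

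In all, 4 of the 77 genes passed for Spearman's rho, all with a positive sign, where 1.61% of the tested genes passed in either direction. For Pearson's r 15 passed, 14 with a positive sign and Atp5g2 with a negative one, where 3.97% of the tested genes passed. The median rho of the 77 was 0.209, against -0.018 over all tested genes. At an unadjusted permutation p below 0.05 the count for rho was 26 of the 77. The share of all tested genes at that threshold was not counted, so whether 26 is more or less than that share is not known. The lowest rho was that of Atp5g2 (-0.756, adjusted permutation p = 0.0602, with r = -0.824 and adjusted permutation p = 0.00803). Without the 2 libraries no gene of the 77 passed for rho, and 14 of all genes did, while for r 1 of the 77 passed (Uqcrb, adjusted permutation p = 0.0264) and 171 of all genes. The share and the levels come from the same libraries and scaling, the relation and the genes were picked after the data were seen, and its cause was not tested.

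**Figure D5:**
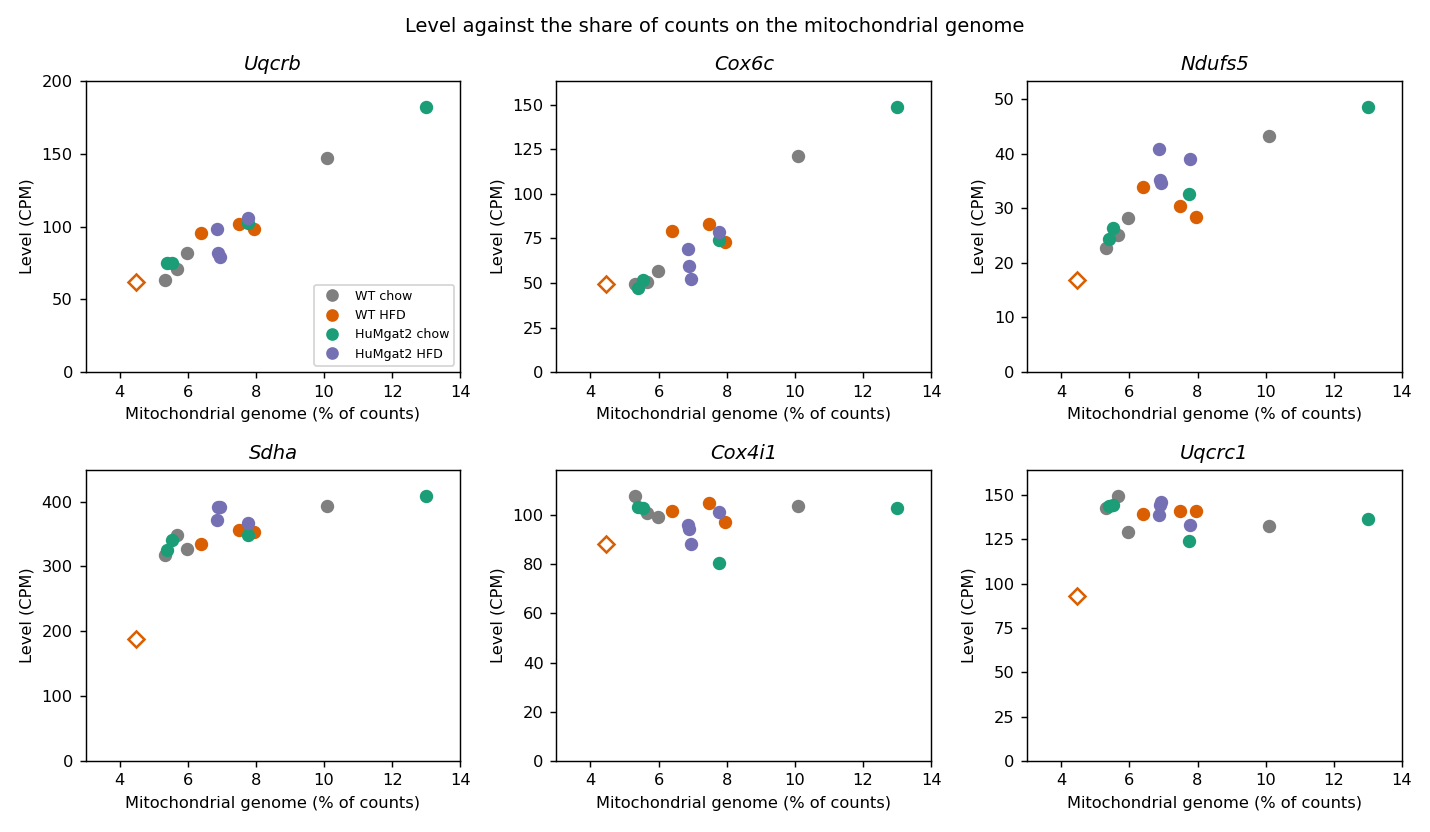
Level (CPM, y axis from 0) of 6 genes against the percentage of counts on the mitochondrial genome (x axis), 1 point per library, coloured by group, with an open diamond for WT HFD library 4. Uqcrb and Cox6c rise along the axis to 182 and 148.4 CPM at 13%, while Cox4i1 and Uqcrc1 show no such rise.

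The other genes of the pathway were read from lists. Of the 13 mitochondrial genes, edgeR called none in any comparison, and without library 4 called 1 as higher on HFD in WT. At an unadjusted p below 0.05 the count was 1 for diet in WT and 0 for diet in HuMgat2 and for genotype on either diet. In these comparisons 10.8% to 31.2% of all tested genes passed that threshold. Their diet change in HuMgat2 had a median log2 of -0.47, with no gene above 0, and their summed level was 52300 to 164300 CPM on chow and 61400 to 72500 on HFD, which overlapped. Without HuMgat2 chow library 13 the median was 0.03, with 10 of 13 above 0. The calls for diet among assembly factors stand beside 15.1% of all tested genes called in WT and 14% in HuMgat2. Of 21 tested factors of complex IV, 2 rose with HFD in WT and 1 in HuMgat2. Coa6, which helps load copper into complex IV, rose in both, from 4.2 ± 0.42 to 8.05 ± 1.33 CPM in WT (log2 0.94 ± 0.17, adjusted p = 0.00173) and from 4.56 ± 1.08 to 6.73 ± 0.56 CPM in HuMgat2 (log2 0.57 ± 0.17, adjusted p = 0.0315). The other was Coa4 (log2 0.68, adjusted p = 0.0198 in WT). Of 19 complex I factors, Nubpl rose in WT and Ndufaf6 fell in HuMgat2 (log2 -0.61, adjusted p = 0.0491). Of 5 complex V factors, Tmem242 rose in WT (log2 0.50, adjusted p = 0.00258). With all libraries, neither complex II (4 factors) nor complex III (6) had a call for diet. Without library 4, 2 complex I factors fell and 1 complex II factor rose in HuMgat2, where 19.2% of genes were called. Averaged over genotypes, 1 complex III factor then rose, where 26.9% of genes were called.

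Genes that feed electrons into the chain were read beside it. Of 14 citric acid cycle genes, 3 rose with HFD in HuMgat2, Cs and Suclg2 among them, and none in WT. Of all tested genes, 14% were called in HuMgat2 and 15.1% in WT. Cs, citrate synthase, stood at 99.25 ± 11.2 CPM on chow and 145.6 ± 15.1 on HFD in HuMgat2 (log2 0.55 ± 0.14, adjusted p = 0.0154), and on HFD it was higher in HuMgat2 than in WT, at 94.6 ± 22.3 CPM (log2 0.62 ± 0.14, adjusted p = 0.00849). Its interaction was not called. Without library 4, 2 cycle genes rose in WT and 6 in HuMgat2, where 14.7% and 19.2% of genes were called. Among 17 electron carrier genes, 2 rose and 2 fell in WT and 1 rose in HuMgat2, beside 15.1% and 14% of all tested genes. Etfdh, which passes electrons from fatty acid oxidation to ubiquinone, rose from 214.8 ± 10.6 to 296.1 ± 7.11 CPM in HuMgat2 (log2 0.46 ± 0.15, adjusted p = 0.0434).

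Coq10b, a lipid-binding protein that ubiquinone needs for its work in the chain, was 1 of 2 electron carrier genes, with Coq10a, whose diet change differed between the genotypes. It rose in WT from 21.35 ± 2.48 CPM on chow to 45.4 ± 2.63 on HFD (log2 1.09 ± 0.18, adjusted p = 0.00104). In HuMgat2 it stood at 19.2 ± 4.43 CPM on chow and 20.7 ± 6.11 on HFD. The interaction was called (log2 -0.99 ± 0.26, adjusted p = 0.0355), as were those of Coq10a (0.60 ± 0.16, adjusted p = 0.0435) and Tmem242 (-0.50 ± 0.13, adjusted p = 0.0408). Without library 4 the call of Coq10b held (adjusted p = 0.0307) and those of Coq10a (0.0539) and Tmem242 (0.0561) were lost. Coq8a, a kinase-like protein of ubiquinone synthesis, fell in WT (log2 -0.82, adjusted p = 0.025).

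Of 14 regulators of mitochondrial gene expression, Esrra, one of the estrogen-related receptors, rose in HuMgat2 with HFD from 12.1 ± 1.39 to 16.1 ± 1.97 CPM (log2 0.41 ± 0.13, adjusted p = 0.0456). In WT its means were 13.3 ± 1.47 on chow and 16.6 ± 2.59 CPM on HFD, not called with all libraries. Averaged over both genotypes 1 of the 14 rose, Esrra (log2 0.36 ± 0.09, adjusted p = 0.00958), where 23.9% of genes were called. Then 4 fell, Yy1, Gabpb1, Nrf1 and Polrmt (log2 -0.30 to -0.22, adjusted p 0.0176 to 0.0436). Without library 4 the call of Polrmt was lost. Yy1 and Twnk fell in WT (log2 -0.27 and -0.34, adjusted p = 0.0483 and 0.0384), and the call of Twnk was lost without library 4 (adjusted p = 0.0666). Ucp2, an inner membrane carrier counted with 7 tested genes of nucleotide exchange and uncoupling, rose on HFD from 18.2 ± 4.13 to 39.8 ± 30.2 CPM in WT (adjusted p = 0.03) and from 20.1 ± 2.53 to 47.65 ± 5.59 CPM in HuMgat2 (adjusted p = 0.0163). In WT this call was lost without library 4 (adjusted p = 0.0573). The adenine nucleotide carrier Slc25a5 rose in HuMgat2 (log2 0.43, adjusted p = 0.0174). Of 77 tested genes of the mitochondrial ribosome, 2 rose in WT, and 1 rose and 2 fell in HuMgat2. Of all tested genes, 15.1% and 14% were called there. For the 85 tested genes of the cytosolic ribosome, a set outside mitochondria, 33 were lower on HFD in HuMgat2 than in WT. Of all tested genes, 14.8% were called in either direction. Without library 4 the count was 16, where 14.2% of genes were called.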

How the data were processed

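Gene counts per library were deposited by the authors as whole numbers. Per the file headers they were made with featureCounts 2.0.1 on read pairs with both ends mapped, summed by gene name, with no option for strand, multi-mapped or overlapping reads, so reads shared between a gene and its pseudogenes or overlapping genes may be lost. The submitters' processing notes name STAR 2.7, DESeq2 1.26.0 and mm39. The 64 records are 16 libraries listed 4 times each, counted once. Total counts ranged from 12422647 to 25812129 per library, and the number of libraries limits the precision.

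CPM with TMM scaling were computed here. One edgeR 4.0.16 quasi-likelihood model (R 4.3.3) held the 4 groups, after filterByExpr, which left 17318 genes, with Benjamini-Hochberg adjustment over all of them. Intervals are 95% from the standard error. Alternatives were DESeq2 1.42.0, limma 3.58.1 voom with sample quality weights, DESeq2 size factors, other filters, scaling without mitochondrial, ribosomal RNA and hemoglobin genes, fits of only the 2 groups compared, and each library left out. The correlation with the mitochondrial share used 100000 permutations. Its 2 alternatives, without the 2 extreme libraries and scaled to other counts, and the fit of the mitochondrial genes without HuMgat2 chow library 13 were chosen after seeing the data. The count test was checked on simulated data.

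The genes and lists were chosen with earlier results of these data known. Named were a set of core and tissue-limited subunits, every gene called where there were at most 12, and up to 3 called genes per pathway list. Uqcrb, Cox6c, Ndufs5, Ndufa10, Ndufb7, Ndufa13 and other genes outside that rule were chosen after their values were seen. Promoter sequences are from RefSeq on GRCm38.p6, used for sequence only. Single values of some genes are not reported here.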

Additional observations from a re-analysis of the deposited data

Results flagged for a closer look

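In these results 1 library lay far from the other 3 of its group, by a gap test that marks about 1 in 20 groups by chance. It marked 9 of 116 groups tested (7.76%). WT HFD library 4 gave 3 of them, all low: Sdha at 188.4 CPM (others 334.7 to 356.6), Uqcrc1 at 93.11 CPM (139.5 to 141.3) and Cox5a, a complex IV subunit, at 36.07 CPM (49.31 to 50.2). The gaps took 0.87, 0.963 and 0.937 of the range of the group. The other single genes were Cox4i1, low in HuMgat2 chow library 15 at 80.67 CPM (102.9 to 103.4, gap 0.978), and Cox7a2, high in WT chow library 5 at 44.51 CPM (37.36 to 37.71, gap 0.951).

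Among summed levels, complex I was low in HuMgat2 HFD library 12 at 1196 CPM (1285 to 1297, gap 0.876) and high in WT chow library 8 at 1287 CPM (1150.1 to 1172, gap 0.838). Complex III was low in HuMgat2 HFD library 12 at 583.5 CPM (620.8 to 624.7, gap 0.904), and complex V in HuMgat2 chow library 15 at 1866 CPM (2097 to 2140, gap 0.844). HuMgat2 HFD library 12 was the lowest of all 16 libraries for 8 of the 77 genes. The cause was not tested.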

How the results depend on the processing

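No named gene called in the main or an alternative setting had opposite signs in the 2. The median change of the 77 genes moved by less than 0.1155 in every comparison and setting run. That value is the pooled SD within groups of the libraries' median level, with WT HFD library 4 included. It is larger than each median change in the main setting, so staying within it shows no stability. The sign of the median change was not fixed: it ran from -0.08 to 0.05 for genotype on HFD, -0.01 to 0.07 for diet in HuMgat2, and -0.11 to 0.02 for the interaction. Counts of genes called did move. With limma voom and quality weights, 9 were higher on HFD in WT, 4 were higher on HFD in HuMgat2, 6 were lower on HFD in HuMgat2 than in WT, and 12 were higher on HFD averaged over genotypes. With no filter on low counts, where 33954 genes share the adjustment, 0 were higher and 0 lower on HFD in HuMgat2, and 0 lower on HFD averaged. With a filter at a mean of 1 CPM, 2 were higher in HuMgat2. Without mitochondrial, ribosomal RNA and hemoglobin genes, 0 were lower in HuMgat2. DESeq2 called 1 higher in HuMgat2 than in WT on HFD. The cause of these shifts was not tested. Leaving out each library in turn gave 0 to 2 higher for diet in WT (1 without WT chow library 5, 2 without WT chow library 8, 1 without WT HFD library 4), 0 to 3 higher and 0 to 1 lower in HuMgat2, and 2 to 10 higher and 1 to 2 lower on average (5 higher without WT HFD library 1 or HuMgat2 HFD library 12, 2 lower without WT HFD library 2). On HFD it gave 0 to 1 higher (1 without WT HFD library 3) and 0 to 2 lower in HuMgat2. On chow and for the interaction no setting called a gene. No paired analysis was possible because no library number is shared between groups.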
